A study of Mus musculus with 6 samples.

Results

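Transcripts of 10 matrix genes known from the dental follicle and periodontal ligament were followed in upper first molars of newborn mice: the matricellular proteins Postn, Tnc and Sparc, the adhesive and microfibrillar glycoproteins Fn1 and Fbn1, and the small leucine-rich proteoglycans Lum, Dcn, Bgn, Aspn and Fmod. The genes were chosen by symbol, and all 10 were found among the 24961 genes named in both deposited tables. RNA came from maxillary first molars at postnatal day 1, with 2 libraries for each of 3 genotypes. Ascl5Mut/Mut molars carried the mutant allele on both chromosomes, Ascl5Mut/WT molars carried 1 mutant allele, and Ascl5WT/WT molars were the controls. The labels give no strain, no molecular description of the allele, and no number of animals or teeth behind a library, so p-values measure the spread between these samples, which may be technical. The Ascl5 protein is a transcription factor of the basic helix-loop-helix class.

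The dental follicle is the loose mesenchyme around the tooth germ, which gives rise to the periodontal ligament, cementum and part of the alveolar bone. Matricellular proteins sit in this matrix and modulate how cells adhere and how collagen is assembled, rather than serving mainly as structural fibres. Small leucine-rich proteoglycans bind collagen and influence the width and spacing of its fibrils, and several of them, like the fibrillins, bind growth factors of the TGF-beta family. None of these genes is limited to the follicle, since bone, gum and other connective tissues express them too.

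The values are normalized gene counts on a linear scale, deposited in 2 tables that each pair 1 mutant genotype with the same 2 Ascl5WT/WT libraries. Totals were 12304814 to 13118122 normalized counts per library, and 1 read appears to be worth 108.7 to 139.8 of them, which gives an estimated 90476 to 117158 counted reads per library. A listed 0 therefore allows up to 3 reads, or 326 to 419 normalized counts, and these limits cover counting error only. Between 66.6% and 71.0% of genes were listed at 0 per library. The tables were normalized separately and share their controls, so each mutant genotype was tested within its own table, and no test was made between the mutant genotypes. Of the 17 markers of the dental follicle and periodontal lineage, 15 were above 0 in at least 1 library of the Ascl5Mut/Mut table and 16 in the Ascl5Mut/WT table. Tcf21, Pthlh, Mkx and Tnmd, all used as lineage markers, were at 0 or at the value of about 1 read in every library. Scx, the tendon and ligament transcription factor, was at 0 and 0 normalized counts in Ascl5Mut/Mut molars, against 539 and 242 in Ascl5WT/WT molars, in its table. The summed list was nevertheless higher in every mutant library, at 56376 to 60902 normalized counts in Ascl5Mut/Mut molars, against 17200 to 20251 in Ascl5WT/WT molars, and at 48896 to 50126 in Ascl5Mut/WT molars, against 16957 to 21024 in Ascl5WT/WT molars. Igfbp5 made up most of it in the mutant molars.

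On the GRCm38 assembly (mm10), with GENCODE M21 gene models, Postn lies at chr3:54361109-54391037 on the plus strand, Tnc at chr4:63959785-64047015 on the minus strand and Sparc at chr11:55394500-55423183 on the minus strand. Fn1 spans chr1:71585520-71653200 and Fbn1 spans chr2:125300594-125507993, both on the minus strand. The proteoglycan genes lie on the plus strand: Lum at chr10:97565128-97572703, Dcn at chr10:97479609-97518143, Bgn at chrX:73483602-73495933, Aspn at chr13:49544443-49567565 and Fmod at chr1:134037254-134048277. Lum and Dcn are neighbours on chromosome 10 with Kera and Epyc, and Aspn lies between Ecm2 and Omd, with Ogn beyond, on chromosome 13. Exons of 4 members overlap exons of a gene on the other strand, by 7 bases for Aspn, 176 for Tnc, 292 for Fn1 and 2442 for Fbn1. The strand setting of the authors' counting is not given in the sources used here, so reads of these pairs may not be separable. The partner of Fn1, Apol7d, was listed at 0 in every library.

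Basic helix-loop-helix factors bind the E-box, CANNTG, and the windows before the start sites of the 3 matricellular genes are shown because these genes had the largest differences of the group. The sequences are the 250 bases before a start site, from RefSeq on GRCm38.p6, written 5′ to 3′ on the gene's own strand, with every CANNTG in capitals. Postn is its second listed start site (chr3:54360857-54361106, plus strand), Tnc its first (chr4:64047016-64047265, minus strand), and Sparc its single one (chr11:55420081-55420330, minus strand), which lies inside the GENCODE gene model.
Postn: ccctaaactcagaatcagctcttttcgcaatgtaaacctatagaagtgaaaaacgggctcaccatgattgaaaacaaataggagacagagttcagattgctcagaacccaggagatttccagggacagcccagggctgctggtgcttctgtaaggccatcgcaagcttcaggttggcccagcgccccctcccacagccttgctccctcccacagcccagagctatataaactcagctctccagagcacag
Tnc: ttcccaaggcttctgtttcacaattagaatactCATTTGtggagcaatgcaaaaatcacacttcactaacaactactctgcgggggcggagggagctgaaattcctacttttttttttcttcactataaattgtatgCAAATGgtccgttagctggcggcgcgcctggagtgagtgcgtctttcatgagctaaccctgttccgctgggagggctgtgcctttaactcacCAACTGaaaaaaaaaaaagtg
Sparc: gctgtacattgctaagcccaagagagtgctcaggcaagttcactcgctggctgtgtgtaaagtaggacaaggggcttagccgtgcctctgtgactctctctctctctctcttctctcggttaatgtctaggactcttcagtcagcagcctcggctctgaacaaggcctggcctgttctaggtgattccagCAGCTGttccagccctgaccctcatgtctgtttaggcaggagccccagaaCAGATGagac
The Postn window held no E-box. The Tnc window held 3, of which the one farthest upstream (CATTTG) starts at -217 bases from the start site. The next, at -113, was CAAATG. The last, at -21, was CAACTG. The Sparc window held CAGCTG at -60. Nearer the start, at -10, it held CAGATG. RefSeq entries were matched for 7 of the 10 genes, with 9 start sites in all. CANNTG, which reads the same on both strands, was in 6 of these 9 windows, against 66.2% of 32851 RefSeq promoter windows of the same length. CAGCTG, a form of CANNTG, was in 2 of the 9, those of Sparc and Bgn, against 13% of all windows, and TATAAA, searched on both strands, was in 4 of the 9, against 12.4%. A match describes letters in the window and no binding.

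Ascl5Mut/Mut was compared with Ascl5WT/WT to ask how these genes differ when both alleles are mutant. Postn rose, and it alone among the members passed the test across all genes. Tnc and Sparc were also higher in both mutant libraries than in either control, but missed the threshold. Fn1 was higher by a smaller margin, and the proteoglycans and Fbn1 showed no called difference. In sum, the 10 genes had 48161 and 37091 normalized counts in Ascl5Mut/Mut molars, against 15353 and 14562 in Ascl5WT/WT molars, or 0.373% and 0.301% of the library total against 0.121% and 0.116%. In bulk tissue, a change in the number of cells of a type and a change in RNA per cell cannot be told apart.

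**Figure D1:**
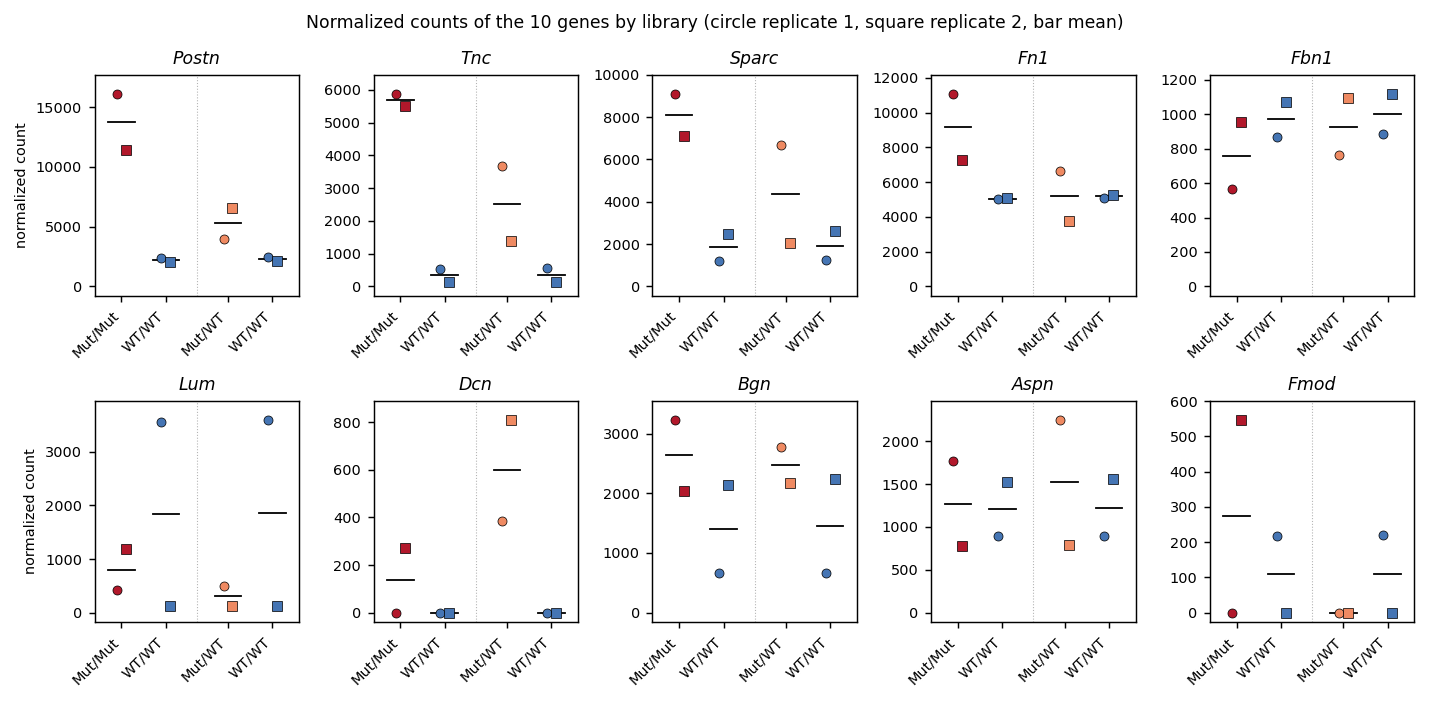
Normalized count of each of the 10 genes (y axis, a separate linear scale per gene) in each library, Ascl5Mut/Mut with Ascl5WT/WT from 1 table on the left of each panel and Ascl5Mut/WT with Ascl5WT/WT from the other table on the right. Circles are replicate 1, squares replicate 2 and bars the mean of 2 libraries. Postn and Tnc lie above both controls in every mutant library, while Lum is high in Ascl5WT/WT replicate 1 alone.

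Postn encodes periostin, a collagen-binding matricellular protein abundant in periodontal ligament and periosteum. It had 16124 and 11457 normalized counts in Ascl5Mut/Mut molars, against 2406 and 2024 in Ascl5WT/WT molars. The groups did not overlap, and the lower mutant library was well above the higher control. The means were 13791 ± 3300 and 2215 ± 270 (SD, n = 2 each). The difference in log2(normalized count + 120) was 2.56 (SE 0.45, 95% interval 1.56 to 3.56), with a limma adjusted p of 0.0356. Postn ranked 68 from the top of the 2336 genes tested. Removing a single library ended the call in 3 cases: the limma adjusted p was 0.341 when Ascl5Mut/Mut replicate 1 was left out, 0.267 for Ascl5Mut/Mut replicate 2 and 0.0879 for Ascl5WT/WT replicate 1, and it also ended with a pseudocount of 1 (0.0762), a minimum mean of 10 (0.576) and no intensity trend (0.235). The log2 difference stayed between 2.31 and 2.80 under every alternative run. An estimated 199 reads in Ascl5Mut/Mut molars and 39 in Ascl5WT/WT molars lie behind it, a depth-adjusted ratio of 6.19 with an exact binomial 95% interval of 4.38 to 8.97 for counting error only.

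Tnc encodes tenascin-C, an anti-adhesive glycoprotein of embryonic mesenchyme and of tissue under load or repair. It had 5876 and 5500 normalized counts in Ascl5Mut/Mut molars, against 545 and 119 in Ascl5WT/WT molars. The mutant libraries were close to each other and far above both controls, which held an estimated 5 reads and 1 read. The means were 5688 ± 266 and 332 ± 301 (SD, n = 2 each), a log2 difference of 3.87 (SE 0.78, 95% interval 2.13 to 5.61), and the limma adjusted p was 0.0566. It ranked 24 from the top, the highest of the members, and passed the minimum mean of 1000 through the mutant libraries alone, so it could enter the test only by being higher there. Its log2 difference was 4.60 and 3.13 without Ascl5WT/WT replicates 1 and 2, and 3.82 and 3.91 without Ascl5Mut/Mut replicates 1 and 2. Tnc passed the threshold under 3 of 13 alternatives. Its limma adjusted p was 0.645 with a minimum mean of 10, 0.223 with a pseudocount of 1 and 0.228 with no intensity trend. The ratio of estimated reads, 82 against 6, was 16.6 with a counting interval of 7.30 to 46.5.

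Sparc encodes osteonectin, a collagen- and calcium-binding protein abundant in bone and in remodelling matrix. It had 9099 and 7085 normalized counts in Ascl5Mut/Mut molars, against 1209 and 2493 in Ascl5WT/WT molars. The groups did not overlap, and the controls differed from each other as well. The means were 8092 ± 1425 and 1851 ± 908 (SD, n = 2 each). The log2 difference was 2.13 (SE 0.54, 95% interval 0.93 to 3.32; limma adjusted p = 0.145), and the adjusted p was 0.0451 without Ascl5WT/WT replicate 2, 0.378 without Ascl5WT/WT replicate 1, and 0.410 and 0.441 without Ascl5Mut/Mut replicates 1 and 2. An estimated 65 and 52 reads in Ascl5Mut/Mut molars and 11 and 21 in Ascl5WT/WT molars lie behind it, a summed ratio of 4.44 with a counting interval of 2.98 to 6.78.

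Fn1 encodes fibronectin, the integrin-binding protein on whose fibrils other matrix proteins assemble. It had 11089 and 7276 normalized counts in Ascl5Mut/Mut molars, against 5008 and 5059 in Ascl5WT/WT molars. Both mutant libraries were above both controls, but they differed from each other more than the controls did, with a log2 difference of 0.82 (SE 0.43, 95% interval -0.14 to 1.78; limma adjusted p = 0.511). Fbn1 encodes fibrillin-1, the main protein of extensible microfibrils that hold latent TGF-beta. It had 564 and 954 normalized counts in Ascl5Mut/Mut molars, against 868 and 1073 in Ascl5WT/WT molars, and with a mean of 865 over the 4 libraries it fell short of the minimum for testing. The genotypes overlapped, on an estimated 4 to 9 reads per library.

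Lum and Fmod encode lumican and fibromodulin, keratan sulfate proteoglycans of collagen fibrils. Lum had 417 and 1182 normalized counts in Ascl5Mut/Mut molars, against 3551 and 123 in Ascl5WT/WT molars. The controls differed more than the genotypes, and the log2 difference of -0.18 (SE 1.49, 95% interval -3.51 to 3.16; limma adjusted p = 0.974) turned positive when Ascl5WT/WT replicate 1 (1.78) or Ascl5Mut/Mut replicate 1 (0.46) was left out. Fmod was at 0 and 546 in Ascl5Mut/Mut molars, against 217 and 0 in Ascl5WT/WT molars, and was not tested. Dcn, which encodes decorin, the dermatan sulfate proteoglycan of connective tissue, was at 0 and 272 in Ascl5Mut/Mut molars, against 0 and 0 in Ascl5WT/WT molars. It was not tested either.

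Bgn encodes biglycan, a proteoglycan of bone and tooth matrix on the X chromosome. It had 3225 and 2044 normalized counts in Ascl5Mut/Mut molars, against 657 and 2144 in Ascl5WT/WT molars. The groups overlapped, because Ascl5WT/WT replicate 2 lay above Ascl5Mut/Mut replicate 2, and the log2 difference was 1.02 (SE 0.73, 95% interval -0.60 to 2.65; limma adjusted p = 0.610). Aspn encodes asporin, a leucine-rich matrix protein of the periodontal ligament. It had 1767 and 775 normalized counts in Ascl5Mut/Mut molars, against 891 and 1527 in Ascl5WT/WT molars. The values were interleaved, and the log2 difference was 0.01 (SE 0.85, 95% interval -1.88 to 1.90; limma adjusted p = 0.998). Leaving out Ascl5Mut/Mut replicate 1 gave -0.53 for Aspn and leaving out Ascl5WT/WT replicate 1 gave -0.34.

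In the Ascl5Mut/Mut comparison 7 of the 10 members passed the minimum mean, and limma called 1 of them higher and 0 lower. Of all genes tested, 0.856% were called, 0.557% higher and 0.300% lower. At an unadjusted p under 0.05, 3 members were higher and 0 lower, against 6.34% and 4.84% of all genes. Both mutant libraries were above both controls for 4 members (Postn, Tnc, Sparc and Fn1) and below them for 0, against 22.0% and 21.8% of all genes. Tnc is in both of these counts and could pass the filter only through its mutant libraries, so the counts describe the members and support nothing. The 7 tested members had a median log2 difference of 1.02, and all 10 had 0.84, while the median of all genes was -0.02 with a 5th to 95th percentile range of -1.81 to 2.08. The filter is on a mean over all 4 libraries, and Fbn1, at 865, fell just short of it, while Aspn, at 1240, and Lum, at 1318, passed closest to it.

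**Figure D2:**
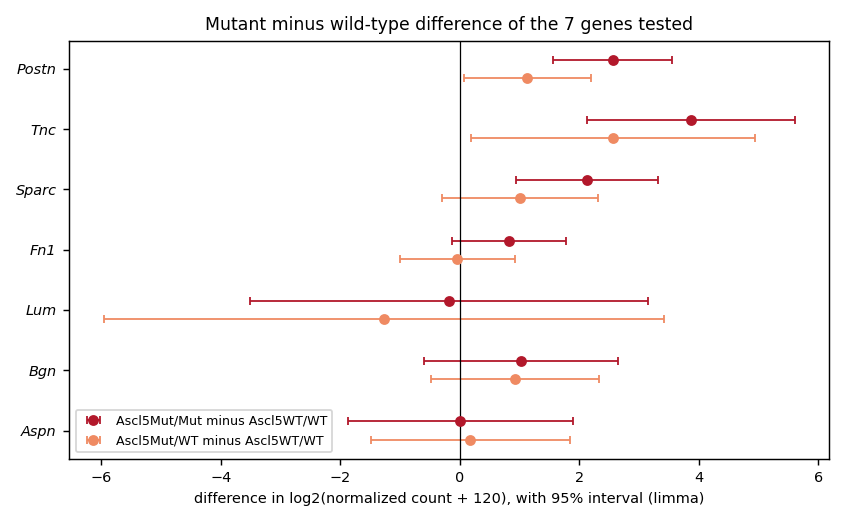
Log2 difference of the 7 tested members (x axis, difference in log2(normalized count + 120)), with the limma 95% interval, for Ascl5Mut/Mut minus Ascl5WT/WT and for Ascl5Mut/WT minus Ascl5WT/WT, which share the Ascl5WT/WT libraries. Intervals lie above 0 for Postn and Tnc in both comparisons and for Sparc in the Ascl5Mut/Mut comparison, and Lum has the widest intervals.

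Ascl5Mut/WT molars were compared with Ascl5WT/WT to ask what 1 mutant allele goes with. Postn and Tnc lay above both controls in both mutant libraries, and no member passed the test. limma called 0 of the 7 tested members, with 2 higher and 0 lower at an unadjusted p under 0.05. Of all 2370 genes tested, 0.549% were called, 0.338% higher and 0.211% lower, and 5.36% were higher and 3.38% lower at an unadjusted p under 0.05. Of the tested members, 2 had both mutant libraries above both controls and 0 below, against 21.1% and 19.5% of all genes. Tnc is 1 of the 2 in each count, and here too it passed the filter only through the mutant libraries. The 7 members had a median log2 difference of 0.92, which was 0.18 without Ascl5Mut/WT replicate 1 and 0.50 without Ascl5WT/WT replicate 1, and all 10 had 0.55, where the median of all genes was 0.04 with a 5th to 95th percentile range of -1.37 to 1.66. The sum of all 10 genes was 27656 and 18800 normalized counts in Ascl5Mut/WT molars, against 15577 and 15125 in Ascl5WT/WT molars.

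Postn had 3954 and 6584 normalized counts in Ascl5Mut/WT molars, against 2443 and 2102 in Ascl5WT/WT molars. The log2 difference was 1.13 (SE 0.51, 95% interval 0.07 to 2.20; limma adjusted p = 0.518), on an estimated 79 and 39 reads, a ratio of 2.26 with a counting interval of 1.52 to 3.41. The mutant libraries were higher but not close to each other. Tnc had 3673 and 1377 in Ascl5Mut/WT molars, against 554 and 123 in Ascl5WT/WT molars, a log2 difference of 2.56 (SE 1.14, 95% interval 0.18 to 4.93; limma adjusted p = 0.518). The estimated reads were 39 against 6, a ratio of 7.26 with an interval of 3.05 to 21.0. The Tnc libraries differed more than 2 times between replicates, with replicate 1 the higher, whereas for Postn replicate 2 was the higher.

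Sparc had 6686 and 2052 normalized counts in Ascl5Mut/WT molars, against 1231 and 2596 in Ascl5WT/WT molars. The groups overlapped, and the log2 difference was 1.01 (SE 0.62, 95% interval -0.29 to 2.30; limma adjusted p = 0.617), which was 0.18 without Ascl5Mut/WT replicate 1 and 1.83 without Ascl5Mut/WT replicate 2. Fn1 had 6664 and 3779 in Ascl5Mut/WT molars, against 5091 and 5261 in Ascl5WT/WT molars, with a log2 difference of -0.04 (SE 0.46, 95% interval -1.01 to 0.92; limma adjusted p = 0.987) that was 0.36 without Ascl5Mut/WT replicate 2. In Sparc, Tnc, Fn1, Bgn, Aspn and Lum, replicate 1 was the higher of the Ascl5Mut/WT pair. Fbn1 had 762 and 1093 in Ascl5Mut/WT molars, against 886 and 1120 in Ascl5WT/WT molars, and was not tested at a mean of 965.

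Among the proteoglycans, Bgn had 2780 and 2178 normalized counts in Ascl5Mut/WT molars, against 670 and 2238 in Ascl5WT/WT molars. Its log2 difference was 0.92 (SE 0.67, 95% interval -0.49 to 2.33; limma adjusted p = 0.693), and 1 control lay between the mutant libraries. Aspn had 2247 and 795 in Ascl5Mut/WT molars, against 889 and 1558 in Ascl5WT/WT molars, with a log2 difference of 0.18 (SE 0.80, 95% interval -1.49 to 1.85; limma adjusted p = 0.954). Lum had 502 and 133 in Ascl5Mut/WT molars, against 3591 and 127 in Ascl5WT/WT molars. Its log2 difference of -1.27 (SE 2.24, 95% interval -5.96 to 3.42; limma adjusted p = 0.883) rests on the single high control and was 0.68 without it. Dcn was the exception to the overlap, with 386 and 808 in Ascl5Mut/WT molars and a listed 0 in both Ascl5WT/WT libraries, an estimated 3 and 6 reads. A listed 0 allows up to 3 reads, or 332 and 374 normalized counts in the Ascl5WT/WT libraries. The lower mutant value, 386, is itself an estimated 3 reads, so it does not clear that limit in reads. No fold is given against a listed 0. Fmod was listed at 0 in both Ascl5Mut/WT libraries and at 222 and 0 in Ascl5WT/WT.

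Expressed per kilobase of exon so that genes can be compared with each other, the order of the members differed between genotypes. In Ascl5Mut/Mut molars Sparc had the highest level at 2136 ± 376 normalized counts per kilobase, followed by Postn at 1585 ± 379, Fn1 at 786 ± 231 and Tnc at 732 ± 34.2 (SD, n = 2 each). The lowest Sparc library, at 1870, was just above the highest Postn library, at 1853, while the values of Fn1 and Tnc overlapped. In Ascl5WT/WT molars of the same table Lum led at 750 ± 990, through 1 library, then Aspn at 514 ± 191, Sparc at 489 ± 240 and Fn1 at 431 ± 3.1, neighbours that overlap, with Postn at 255 ± 31.1 and Tnc at 42.7 ± 38.8. In Ascl5Mut/WT molars Sparc had 1153 ± 865, Aspn 646 ± 436, Postn 605 ± 214 and Fn1 447 ± 175, so that the spread covers the order. The other members ranged from 23.3 for Dcn to 540 for Aspn in Ascl5Mut/Mut molars and from a listed 0 for Fmod to 406 for Bgn in Ascl5Mut/WT molars. Exon lengths were those of all annotated transcripts joined, and the transcripts in use may be shorter.

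Across the 6 libraries, 8 members were above 0 in every library, Dcn in 3 and Fmod in 2. As a description over 6 libraries that share depth and include the genotype differences, the log2 level of Tnc correlated most with the mean of the other members (Pearson's r = 0.95), followed by Sparc and Postn (0.74 each) and Fn1 (0.62). For Lum (r = -0.06), Aspn (-0.07) and Fbn1 (-0.56) it did not rise with that mean. Among 2315 genes with a mean of at least 1000, those most like the members' mean level included Mme, a membrane metalloendopeptidase (r = 0.991), Zfp106 (0.982) and Hmgxb3 (0.980). Mme had 1846 and 2443 normalized counts in Ascl5Mut/Mut molars, 1289 and 274 in Ascl5Mut/WT molars, and 216 and 0 in Ascl5WT/WT molars. In Ascl5WT/WT molars Zfp106 had 656 and 482, and Hmgxb3 had 325 and 235. Mme, Zfp106 and Hmgxb3 each passed that mean through the mutant libraries alone. These correlations were picked as the highest of 2315 over only 6 libraries, and they were not tested.

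Genes that share the members' roles and partners were set beside them, first the collagens that the members bind. Of 11 collagen genes, 9 were tested in the Ascl5Mut/Mut table, where 0 passed limma's adjusted threshold. At an unadjusted p under 0.05, 7 were higher, against 6.34% of all genes. All 9 had both mutant libraries above both controls, a share that is 22.0% over all genes, and the median log2 difference was 1.35. Col1a2, a chain of the type I collagen of bone and ligament, had 60762 and 33388 normalized counts in Ascl5Mut/Mut molars, against 8445 and 24451 in Ascl5WT/WT molars (log2 difference 1.64, limma adjusted p = 0.246, which was 0.0155 without Ascl5WT/WT replicate 2 and 0.493 to 0.664 without any other library). Col3a1, the type III collagen of loose connective tissue, had 9218 and 5830 in Ascl5Mut/Mut molars, against 2398 and 2632 in Ascl5WT/WT molars (1.50, limma adjusted p = 0.285). In the Ascl5Mut/WT comparison, 6 of 9 collagens had both mutant libraries above both controls, against 21.1% of all genes. At an unadjusted p under 0.05, 1 was higher, against 5.36% of all genes, 0 were called by limma, and the median was 0.85. The shares of all genes given for the members apply to the counts of the lists that follow.

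**Figure D3:**
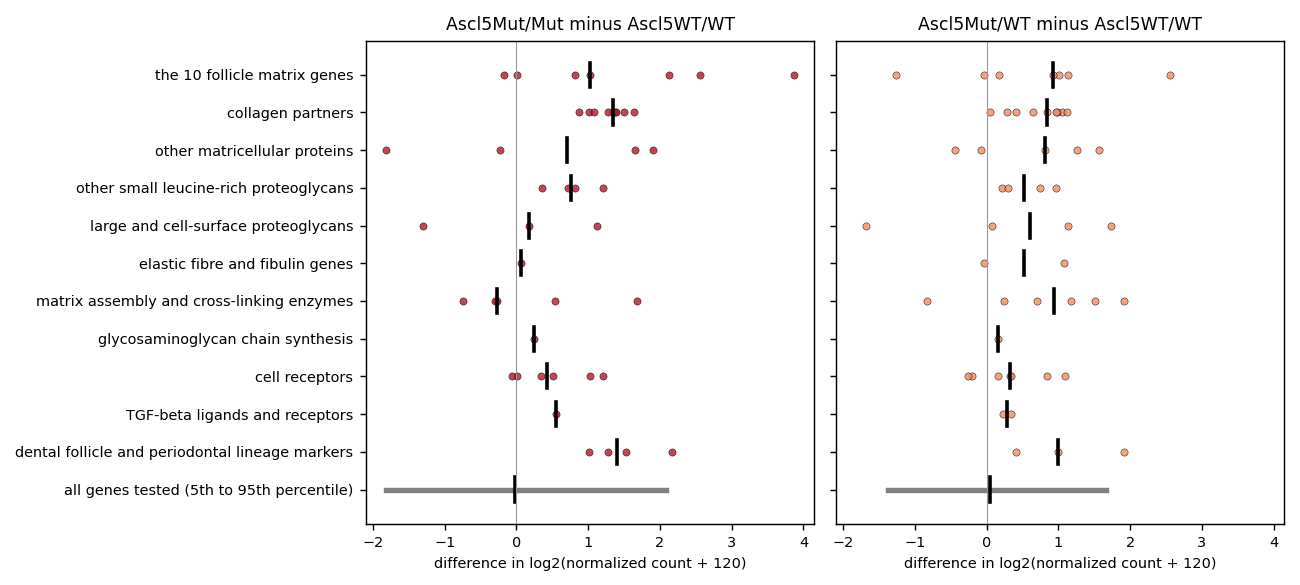
Log2 difference (x axis) of every tested gene of each list, 1 dot per gene, for Ascl5Mut/Mut minus Ascl5WT/WT on the left and Ascl5Mut/WT minus Ascl5WT/WT on the right. Vertical bars are medians, and the grey line is the 5th to 95th percentile of all genes tested. Every collagen dot lies above 0 in both panels.

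Of 21 other matricellular genes, 4 were tested in the Ascl5Mut/Mut table and 0 were called by limma, with 1 higher at an unadjusted p under 0.05 and a median of 0.71. Thbs2, a thrombospondin of fibroblast matrix, had 4750 and 4462 normalized counts in Ascl5Mut/Mut molars, against 657 and 1928 in Ascl5WT/WT molars (log2 difference 1.91, limma adjusted p = 0.331). Sparcl1, a relative of Sparc, had 3791 and 1890 in Ascl5Mut/Mut molars, against 437 and 1322 in Ascl5WT/WT molars (1.65, limma adjusted p = 0.484). In the Ascl5Mut/WT comparison, 5 of these genes were tested, with 0 called by limma, 0 higher at an unadjusted p under 0.05 and a median of 0.81. Of 12 other small leucine-rich proteoglycans, 4 were tested in each table, 0 were called by limma, and the medians were 0.77 in Ascl5Mut/Mut and 0.52 in Ascl5Mut/WT. At an unadjusted p under 0.05 they numbered 1 higher in Ascl5Mut/Mut and 0 in Ascl5Mut/WT. Ogn, which encodes mimecan and lies next to Omd and Aspn on chromosome 13, had 6974 and 6753 in Ascl5Mut/Mut molars, against 2401 and 3528 in Ascl5WT/WT molars (1.20, limma adjusted p = 0.374). Kera and Epyc, neighbours of Lum and Dcn, were listed at 0 in every library.

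Large proteoglycans went both ways, with 3 genes tested in the Ascl5Mut/Mut table and 4 in the Ascl5Mut/WT table, 0 called by limma in either. At an unadjusted p under 0.05, 0 were higher and 1 lower in Ascl5Mut/Mut, and 1 higher and 1 lower in Ascl5Mut/WT. Vcan, the versican of embryonic mesenchyme, had 5539 and 9572 normalized counts in Ascl5Mut/Mut molars, against 19267 and 17084 in Ascl5WT/WT molars (log2 difference -1.30, limma adjusted p = 0.246). In the other table it had 8293 and 4573 in Ascl5Mut/WT molars, against 21144 and 19177 in Ascl5WT/WT molars (-1.69, limma adjusted p = 0.0624). Every mutant library was thus below both controls of its table for Vcan. Hspg2, the perlecan of basement membranes, had 3406 and 4902 in Ascl5Mut/WT molars, against 763 and 1686 in Ascl5WT/WT molars (1.74, limma adjusted p = 0.293). Of 17 elastic fibre genes, 1 was tested in Ascl5Mut/Mut and 2 in Ascl5Mut/WT, and 0 were called by limma or at an unadjusted p under 0.05.

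Among the 17 follicle and periodontal lineage markers, Igfbp5 rose in both genotypes. Igfbp5, an insulin-like growth factor binding protein made by follicle and other mesenchyme, had 38667 and 43801 normalized counts in Ascl5Mut/Mut molars, against 7627 and 10872 in Ascl5WT/WT molars (log2 difference 2.16, limma adjusted p = 0.0218). In Ascl5Mut/WT molars it had 35399 and 35736, against 7765 and 11322 in Ascl5WT/WT molars (1.91, limma adjusted p = 0.0068). Spon1, the secreted matrix protein F-spondin, had 7104 and 7381 in Ascl5Mut/Mut molars, against 1957 and 4331 in Ascl5WT/WT molars (1.28, limma adjusted p = 0.387). With 4 markers tested in Ascl5Mut/Mut and 3 in Ascl5Mut/WT, 1 was called higher in each and 0 lower. The Igfbp5 call was lost without either mutant library in both tables (adjusted p = 0.312 to 0.841 by limma), and in the Ascl5Mut/Mut table also without Ascl5WT/WT replicate 1 (0.0974).

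Summed markers of other tissues also differed between the genotypes. The 12 osteoblast and bone markers, all above 0 in some library of the Ascl5Mut/Mut table, summed to 28045 to 38938 normalized counts in Ascl5Mut/Mut molars, against 3383 to 8693 in Ascl5WT/WT molars, and to 11210 to 28540 in Ascl5Mut/WT molars, against 3492 to 9073 in Ascl5WT/WT molars. In the Ascl5Mut/WT table, Bglap2 and Mepe were at 0 throughout. Of the bone markers, 3 were tested in Ascl5Mut/Mut and 2 in Ascl5Mut/WT, and 0 were called by limma. Of 10 osteoclast markers 6 were above 0, and they summed to 11955 to 17744 in Ascl5Mut/Mut molars, against 359 to 539 in Ascl5WT/WT molars, with Oscar, Ocstamp, Dcstamp and Calcr at 0 throughout. Of these markers 1 was called, Ctsk, the osteoclast protease cathepsin K (limma adjusted p = 0.0151). Ctsk had 11106 and 7277 normalized counts in Ascl5Mut/Mut molars, against 109 and 120 in Ascl5WT/WT molars. This gene made up most of the osteoclast sums in Ascl5Mut/Mut molars. It passed the minimum mean through the mutant libraries alone, so it could enter the test only by being higher there. Its limma adjusted p was 0.311 with a minimum mean of 10. In the other table the osteoclast markers summed to 2169 to 9217 in Ascl5Mut/WT molars, against 380 to 552 in Ascl5WT/WT molars. Replicate 1 was the higher Ascl5Mut/WT library for both of these lists, as it was for Sparc, Tnc, Fn1, Bgn, Aspn and Lum. For Postn, Fbn1 and Dcn replicate 2 was the higher, and a link between these orders was not tested.

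The 14 keratinized oral epithelium markers, 13 of them above 0, with Sprr1a at 0 throughout, summed to 21197 to 138030 in Ascl5Mut/Mut molars, against 658 to 2902 in Ascl5WT/WT molars, and to 15461 to 54491 in Ascl5Mut/WT molars, against 685 to 2964 in Ascl5WT/WT molars. In Ascl5Mut/Mut 3 of these markers were called higher, the keratins Krt4 and Krt13 of stratified oral epithelium (limma adjusted p = 0.0151 and 0.0271) and Rptn, which encodes repetin (0.0403), and in Ascl5Mut/WT the 2 keratins (0.000261 and 0.0062). Krt4 had 5922 and 38281 normalized counts in Ascl5Mut/Mut molars, against 109 and 0 in Ascl5WT/WT molars, and Rptn was listed at 0 in both controls. Krt4 and Rptn thus passed the minimum mean there through the mutant libraries alone, and could enter the test only by being higher in them. The same held for Krt13 there, and for Krt4 and Krt13 in Ascl5Mut/WT. With a minimum mean of 10, the limma adjusted p in Ascl5Mut/Mut was 0.440 for Krt4, 0.576 for Krt13 and 0.440 for Rptn. In Ascl5Mut/WT that setting gave 0.000274 for Krt4 and 0.0101 for Krt13. The calls of Ctsk, Krt4, Krt13 and Rptn were lost without either mutant library of the table, and without Ascl5WT/WT replicate 1 those of Krt13 (0.0974) and Rptn (0.0727) were lost in Ascl5Mut/Mut. The 13 dental papilla markers, 10 of them above 0 and Crym and Fgf3 at 0 throughout, summed to 3704 to 4547 in Ascl5Mut/Mut molars, against 54923 to 57166 in Ascl5WT/WT molars, and to 5383 to 9865 in Ascl5Mut/WT molars, against 55857 to 59506 in Ascl5WT/WT molars. Dlx1, a homeobox gene of jaw mesenchyme, made up most of the control sums, with 2348 and 556 in Ascl5Mut/Mut molars, against 47224 and 53336 in Ascl5WT/WT molars. It was called lower in both tables by limma (adjusted p = 0.00405 in Ascl5Mut/Mut and 1.4e-05 in Ascl5Mut/WT), and each call was lost without either mutant library of its table. Its reads and those of its antisense gene, Dlx1as, may not be separable. Of 11 endothelial markers 7 were above 0, and they summed to 2247 to 3936 in Ascl5Mut/Mut molars, against 590 to 839 in Ascl5WT/WT molars, with Cldn5, Emcn, Esam and Tie1 at 0. The 12 skeletal muscle markers ranged from 9969 to 236693 in Ascl5Mut/Mut molars, against 8153 to 38355 in Ascl5WT/WT molars, with the high value in replicate 1. The part of these tissues in the values of the 10 matrix genes was not tested.

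**Figure D4:**
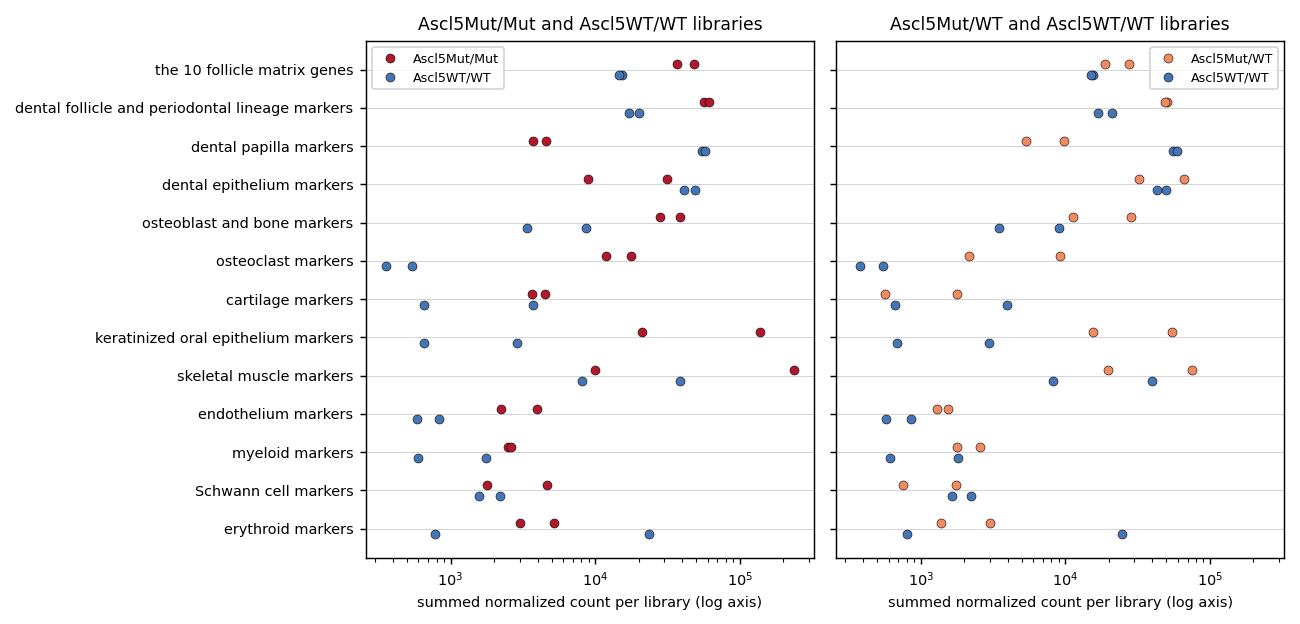
Summed normalized count per library (x axis, log scale) of the 10 matrix genes and of 12 marker lists, with Ascl5Mut/Mut above Ascl5WT/WT on the left and Ascl5Mut/WT above Ascl5WT/WT on the right, 1 dot per library. Bone, osteoclast and stratified oral epithelium (labelled keratinized) sums are higher and dental papilla sums are lower in every mutant library than in either control.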

How the data were processed

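Total RNA of 6 molar libraries from 3 genotypes was made into libraries with a SMARTer Stranded kit and sequenced on a NovaSeq in 1 batch, per the labels' protocols. The authors deposited 2 tables, each of 24972 genes, whose normalized gene counts were handled as a linear signal. Per the submitters' processing notes, the mm10 genome and DESeq2 were used. For the aligner, annotation and strand setting, the tool or choice is not given in the sources read. The Ascl5WT/WT values differed between the tables by a median ratio of 1.018 for replicate 1 and 1.041 for replicate 2. Low values sit at steps of about 1 read, but within 5 steps only 83.9% to 93.5% of a library's values were whole to a tolerance of 0.1 step. That share was too low to recover exact reads, so no gene was tested with a count model. Reads were estimated by rounding to whole steps. The exact binomial intervals of Postn, Tnc and Sparc rest on these estimates and are approximate.

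Genes with a mean of at least 1000 over a table's 4 libraries were tested with limma 3.58.1 in R 4.3.3, on log2(normalized count + 120), two-sided and with a trend on intensity, with Benjamini-Hochberg adjustment over all genes tested and a call at an adjusted p under 0.05. Adding 120, about 1 read, understates the change of low genes. With 2 libraries a group, the smallest exact two-sided permutation p is 0.33. The fit was tested on simulated data. Alternatives were other pseudocounts, filters and scalings, no trend, a replicate block and leaving out each library.

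The 10 members, the 21 other gene lists and the settings were chosen with earlier results of these data known. The genes named were drawn from all members, the genes called in each list, genes with the largest differences of each list (at most 3 per comparison), markers at 0, genes overlapping a member, and the 5 genes most correlated with the members, of which 2 are not reported here. Gene positions are from GENCODE M21 and promoter windows from RefSeq.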

Additional observations from a re-analysis of the deposited data

How the results depend on the processing

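Counts of called genes depended on the processing. For Ascl5Mut/Mut, limma called 20 genes, against 4 with a pseudocount of 1, 1 with a minimum mean of 10, 1 with no filter beyond a value above 0, and 0 with a pseudocount of 1 and a minimum mean of 10 together (1280 at an unadjusted p under 0.05) or with no intensity trend (242). Leaving out 1 library gave 0 to 33: 0 without either mutant library, 7 without Ascl5WT/WT replicate 1 and 33 without Ascl5WT/WT replicate 2. For Ascl5Mut/WT it called 13, against 8 with a pseudocount of 1, 0 with both lower settings (1055 at an unadjusted p under 0.05) or no trend (190), and 0 to 34 leaving out 1 library (0 without either mutant library, 20 without Ascl5WT/WT replicate 1, 34 without replicate 2). Members called higher in Ascl5Mut/Mut, 1 as reported, were 0 with a pseudocount of 1, a minimum mean of 10, no filter, both lower settings or no trend (3 or 4 at an unadjusted p under 0.05 in these), 2 with a pseudocount of 500 or median-ratio scaling, and 0 to 2 leaving out 1 library. In Ascl5Mut/WT they were 0 under every alternative, with 1 to 3 at an unadjusted p under 0.05. Igfbp5, Dlx1, Krt4 and Krt13 lost their calls in both comparisons with no trend or with both lower settings, as did Ctsk and Rptn in Ascl5Mut/Mut. In Ascl5Mut/Mut all of these genes also lost them with a minimum mean of 10 or no filter. There, all but Dlx1 lost them with a pseudocount of 1, as did Krt4 and Krt13 in Ascl5Mut/WT. Rptn also lost its call with equal totals (limma adjusted p = 0.0543). In Ascl5Mut/Mut, Tnc passed with a pseudocount of 500 (limma adjusted p = 0.0312) and median-ratio scaling (0.0349). It did not pass with a pseudocount of 1 (0.223), a minimum mean of 10 (0.645) or no trend (0.228). The members' median in Ascl5Mut/Mut was 0.71 to 1.79 leaving out 1 library, 1.64 without Ascl5WT/WT replicate 1 and 1.79 without replicate 2. The cause of these shifts was not tested.

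Directions turned for Lum, Aspn, Fn1 and Ogn. Leaving out 1 library, Lum ranged from -2.14 to 1.78 in Ascl5Mut/Mut and from -3.22 to 0.68 in Ascl5Mut/WT, Aspn from -0.53 to 0.55 and from -0.51 to 0.86, Fn1 from -0.44 to 0.36 in Ascl5Mut/WT, and Ogn from -0.24 to 0.67 there. Lum was 0.083 in Ascl5Mut/Mut with a pseudocount of 1, alone or with a minimum mean of 10. Postn, Tnc, Sparc and Bgn kept their direction under all 13 alternatives in both comparisons.

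Same-numbered libraries did not deviate together (correlation -0.013 over 2336 genes in the Ascl5Mut/Mut table and 0.023 over 2370 in the other), so the numbers were not taken as pairs. With the replicate block, 36 genes were called in Ascl5Mut/Mut and 37 in Ascl5Mut/WT, and 2 members, Postn and Tnc, in Ascl5Mut/Mut, and Vcan passed in Ascl5Mut/WT (adjusted p = 0.0100). Lum, Dcn, Fmod, Fbn1 and Aspn stood at an estimated 0 to 33 reads per library.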

Other observations

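Enzymes that build and cross-link the matrix, receptors that bind the members and TGF-beta genes showed no called gene in either table. Of 17 matrix enzymes, 5 were tested in Ascl5Mut/Mut (median log2 difference -0.28, and 0.36 over all 17 at any level) and 6 in Ascl5Mut/WT (0.94), with 0 called by limma and 1 higher at an unadjusted p under 0.05 in each. Loxl3, a lysyl oxidase of collagen cross-linking, had 3197 and 3737 normalized counts in Ascl5Mut/Mut molars, against 1977 and 471 in Ascl5WT/WT molars (1.68, limma adjusted p = 0.430). Of 19 receptors, 6 were tested in Ascl5Mut/Mut (median 0.43) and 7 in Ascl5Mut/WT (0.32), with 0 called by limma and 0 at an unadjusted p under 0.05. Itga11, a collagen-binding integrin chain of fibroblasts, had 2224 and 977 in Ascl5Mut/Mut molars, against 770 and 584 in Ascl5WT/WT molars (1.02, limma adjusted p = 0.697). Of 22 genes of glycosaminoglycan chain synthesis 1 was tested in each table, and of 12 TGF-beta genes 1 in Ascl5Mut/Mut and 2 in Ascl5Mut/WT, with 0 called by limma and 0 at an unadjusted p under 0.05.

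Sums of the dental epithelium, myeloid, cartilage, Schwann cell and erythroid markers overlapped between genotypes in at least 1 of the 2 tables. Dental epithelium markers summed to 8927 to 31376 normalized counts in Ascl5Mut/Mut molars, against 41169 to 48901 in Ascl5WT/WT molars, and to 32440 to 65971 in Ascl5Mut/WT molars, against 43084 to 49720 in Ascl5WT/WT molars. Myeloid markers summed to 2513 to 2613 in Ascl5Mut/Mut molars, against 596 to 1754 in Ascl5WT/WT molars. Cartilage markers summed to 3680 to 4471 in Ascl5Mut/Mut molars, against 652 to 3743 in Ascl5WT/WT molars. Schwann cell markers summed to 1797 to 4622 in Ascl5Mut/Mut molars, against 1572 to 2199 in Ascl5WT/WT molars. Erythroid markers summed to 3006 to 5224 in Ascl5Mut/Mut molars, against 787 to 23656 in Ascl5WT/WT molars.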
